A study of Mus musculus with 15 samples.

Results

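The genes described here are 10 of the 13 protein-coding genes of the mouse mitochondrial chromosome: ND1, ND2, ND4, ND4L, ND5 and ND6 of complex I, CYTB of complex III, COX1 and COX3 of complex IV, and ATP6 of complex V. They were chosen by name in the deposited count table, which holds 39331 genes and 37 rows of the mitochondrial chromosome, and all 10 were among the 16437 genes with enough counts to be tested. COX2, ATP8 and ND3 are the other 3 protein-coding genes of that chromosome and are given for comparison. Polyadenylated RNA came from the left ventricle of C57BL/6 mice, and every library, controls included, was made from a heart with experimental myocardial infarction. Neonatal hearts into which adult T cells had been transferred gave 4 libraries (NH_T, numbers 1, 2, 4 and 5), and neonatal controls without transfer gave 4 (NH_C, 6 to 9). Adult hearts with adult T cells gave 4 (AH_T, 1 to 4), and adult controls gave 3 (AH_C, 5 to 7). The series title concerns adult T cells and regeneration of the neonatal heart, and the labels give the number and source of the T cells no further. The protocol's 36 h after infarction speaks of neonatal hearts, the time in adults is not given, and neither are ages in days. Nothing in the labels says whether libraries of a group came from separate animals, so p-values measure the spread between libraries, which may be technical.

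The mitochondrial chromosome is transcribed as long RNAs that run through many genes and are then cut into messengers, ribosomal RNAs and transfer RNAs, mostly at the transfer RNAs that lie between them. All of its proteins are core subunits of the respiratory chain or of ATP synthase, and they are assembled with many more subunits made from nuclear genes. Heart muscle holds very many mitochondria, and the heart's switch from glucose to fatty acids as a fuel after birth goes with growth of the respiratory chain. Most of these messengers receive a short poly(A) tail, which in some genes also completes the stop codon.

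The 3′ ends of the coding sequences are shown because the libraries were captured by poly(A) tails, although the tails need not start there. Another reason is ND4L, which the comparisons below turn on and which shares its end with ND4. Sequences are from GENCODE M21 transcripts on GRCm38, all 10 genes matched, and each is the last 30 bases of the coding strand, with the final T or the stop codon in capitals. Of the 10 genes, 7 end in a complete stop codon and 3, namely ND4, CYTB and COX3, end with T. Both kinds are shown for complexes III to V, where the last base of ATP6 is also the first base of COX3.
COX1 (MT:6843-6872, + strand): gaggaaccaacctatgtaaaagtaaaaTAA
ATP6 (MT:8578-8607, + strand): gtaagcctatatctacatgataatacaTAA
COX3 (MT:9361-9390, + strand): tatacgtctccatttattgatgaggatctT
CYTB (MT:15259-15288, + strand): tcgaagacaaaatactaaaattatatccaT
The coding sequences of ND4L and ND4 overlap by 7 bases and lie on one bicistronic messenger, jointly spanning 1668 bases. In the next 2 sequences the capitals mark the shared bases, which hold the stop codon of ND4L and the start codon of ND4.
ND4L, 3′ end (MT:10144-10173, + strand): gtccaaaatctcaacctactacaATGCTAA
ND4, 5′ start (MT:10167-10196, + strand): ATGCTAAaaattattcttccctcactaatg
ND5 and ND6 run towards each other and overlap by 14 bases on opposite strands, in capitals here, so a read across that stretch can be told apart only by strand.
ND5, 3′ end (MT:13536-13565, + strand): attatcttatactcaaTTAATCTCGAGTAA
ND6, 3′ end (MT:13552-13581, - strand): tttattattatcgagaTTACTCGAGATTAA
How reads in such overlaps were divided, and whether strand was used in counting, is not given in the sources used here, and reads shared with nuclear copies of mitochondrial DNA could also be split.

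All 10 are single-exon genes, and the spans given here are those of the coding sequence, without any untranslated sequence of the messenger. Their positions on chromosome MT in GRCm38.p6, as the table gives them, are 2751 to 3707 for ND1 (gene ID 17716), 3914 to 4951 for ND2 (17717), 5328 to 6872 for COX1 (17708), 7927 to 8607 for ATP6 (17705) and 8607 to 9390 for COX3 (17710). ND4L (17720) spans 9877 to 10173, ND4 (17719) 10167 to 11544, ND5 (17721) 11742 to 13565 and CYTB (17711) 14145 to 15288, all on the + strand. ND6 (17722) spans 13552 to 14070 and is the only protein-coding gene of the - strand.

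Total counts were 21871617 to 34302786 per library, so the genes rest on many reads, ND6 excepted. A count of 3, used as the floor, corresponded to 0.0875 to 0.137 CPM, which is a count as a share of its library, and covers counting error only. Cardiomyocyte transcripts were abundant in every group: Myh6, a myosin heavy chain, measured 7303 to 17739 CPM and Myl2, the ventricular myosin light chain, 6783 to 12777. Levels are CPM after TMM scaling (trimmed mean of M values), and changes are log2 fold changes ± standard error from 1 edgeR fit over all 15 libraries, with Benjamini-Hochberg adjustment over all 16437 genes and a threshold of 0.05. In whole tissue, fewer cells of a type and less RNA per cell cannot be told apart.

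The 10 genes together took up a large part of every library. They held 16.5, 18.6 and 19.9% of all counts in the adult controls in ascending order, and 11.4 to 16.0% (14.0% ± 2.09, SD, n = 4) in the adult recipients. In neonatal hearts the share was 9.94 to 12.6% (11.6% ± 1.17, SD, n = 4) with T cells and 10.3 to 14.7% (12.1% ± 1.96, SD, n = 4) without. The adult controls stood above all other libraries, while both neonatal groups overlapped.

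Per kilobase of gene, COX1, the catalytic core of cytochrome c oxidase, was the most abundant of the 10 in each group, at 44876 ± 5297 TMM-scaled CPM per kb in adult controls (SD, n = 3). CYTB, the cytochrome b of complex III, followed there at 24631 ± 1782, COX3 at 21587 ± 2512, ND1 at 20832 ± 1807 and ATP6 at 17512 ± 2247 CPM per kb. CYTB, COX3, ND1 and ATP6 overlapped with their neighbours in this order, whereas COX1 lay above all of them. Then came ND4 at 13758 ± 1302, ND2 at 10653 ± 1317, ND5 at 8992 ± 1940 and ND4L at 3668 ± 844 CPM per kb. Of these only ND2 and ND5 overlapped. ND6, whose messenger in human cells carries little or no poly(A) tail, was last at 61.2 ± 13.3 CPM per kb. The order was the same in the neonatal groups, and in adult recipients COX3 (21727 ± 4188) and CYTB (19723 ± 3173 CPM per kb) changed places within their spread.

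**Figure D1:**
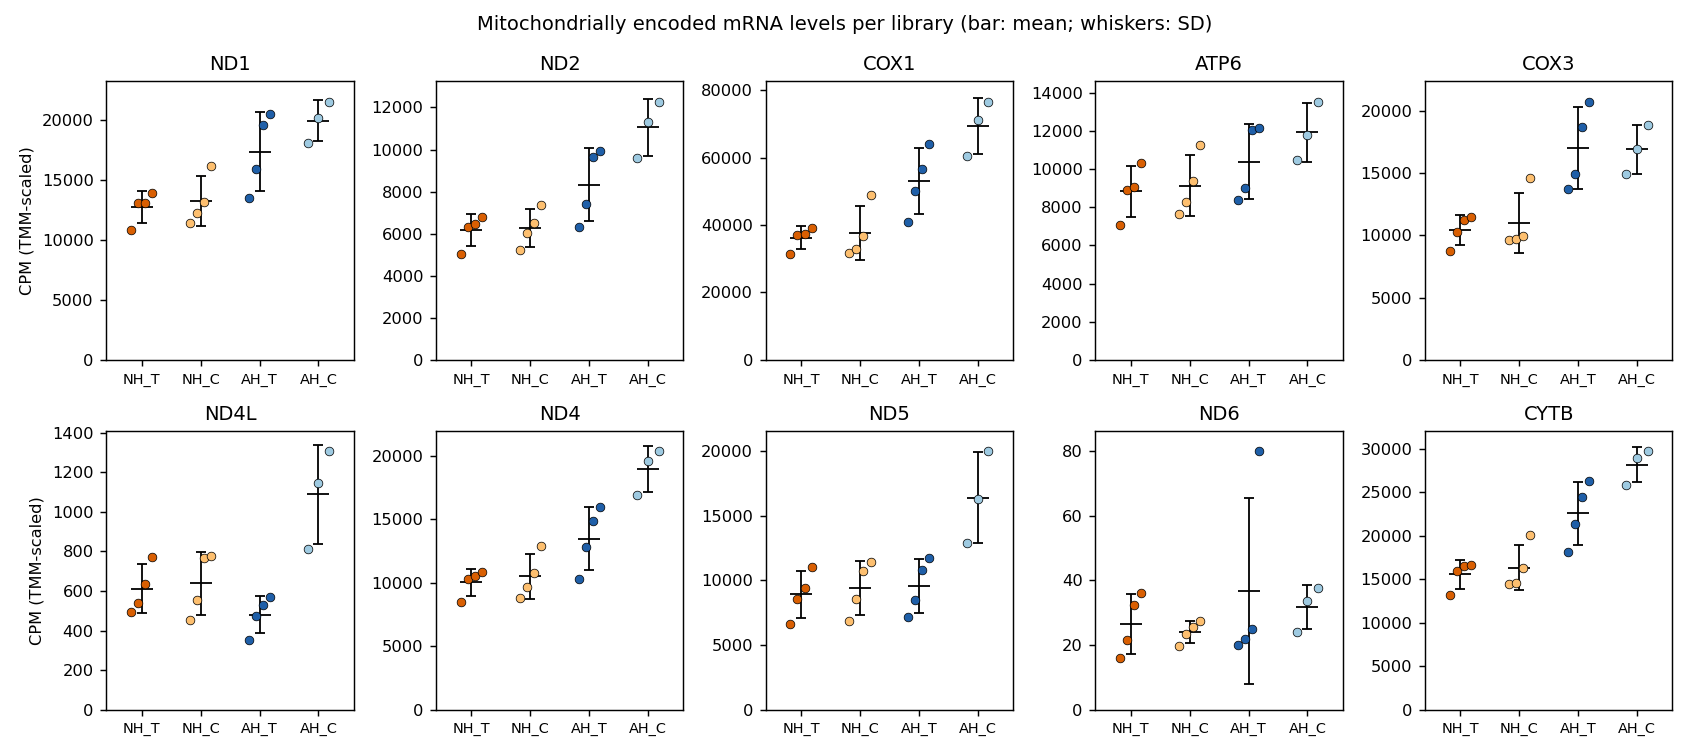
TMM-scaled CPM (vertical axes, from 0) of each gene in each library by group, with a bar for the mean and whiskers for the SD (n = 4, or 3 in adult controls). ND4L, ND4 and ND5 of the adult recipients (AH_T) lie below all adult controls (AH_C), and for ND6 1 adult recipient stands apart at 79.9 CPM.

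The first comparison concerned adult T cells in the adult heart. Of the 10 genes, 3 fell and 0 rose, against 5.03% of all tested genes that fell and 3.53% that rose (826 and 580 genes, 8.55% in either direction). The 3 were ND4L, ND5 and ND4, with transfer RNA genes alone between ND4 and ND5. All are complex I subunits, but ND1, ND2 and ND6 of complex I did not pass, nor did ND3 (log2 0.17). The 3 also have the longest annotated coding spans, ND5 with 1824 bases and ND4L and ND4 jointly with 1668. Untranslated sequence is not counted in these lengths. Next in length came COX1 (1545 bases, -0.39), CYTB (1144, -0.32) and ND2 (1038, -0.41). Of shorter ones, ND1 (957) was at -0.20, and ATP8 and ATP6, jointly on 842 bases, at -0.43 and -0.20. COX3 (784) was at 0.01, COX2 (684) at -0.06, ND6 (519) at 0.21 and ND3 (348) at 0.17. Complex and annotated length were not separated by any test. The median log2 fold change of the 10 was -0.35, against -0.0021 over all genes tested, and 8 of 10 values were negative. In 3 of 10 genes the recipients lay wholly below the controls, as did 12% of all genes tested.

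ND4L, a small membrane subunit of complex I, measured 473, 572, 528 and 351 TMM-scaled CPM in adult recipients 1 to 4, and 1147, 1306 and 815 CPM in adult controls 5 to 7. All recipients were below all controls, and recipient 4 was lowest. The log2 fold change was -1.18 ± 0.23 (edgeR adjusted p = 0.0181), a fold of 0.441. Only 0.639% of tested genes had a value as low or lower, which is its place in the ranking and not a test.

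ND5, a proton-pumping subunit of complex I, measured 8488, 10814, 11772 and 7157 CPM in recipients 1 to 4 and 16314, 19984 and 12906 CPM in controls 5 to 7. The groups did not overlap, although recipient 3 and control 7 were close. The log2 fold change was -0.78 ± 0.21 (edgeR adjusted p = 0.0385). ND4, another proton-pumping subunit, measured 12828, 15992, 14832 and 10298 CPM in recipients and 19588, 20353 and 16935 CPM in controls. The gap between recipient 2 and control 7 was small beside the spread within either group, and the log2 fold change was -0.49 ± 0.15 (edgeR adjusted p = 0.045).

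These calls rested on individual libraries. Without adult recipient 4, adult control 5 or adult control 6, 0 of the 10 genes and 0 of all genes passed, with ND4L at adjusted p = 0.0641, 0.0637 and 0.0843 and log2 fold changes of -1.05, -1.14 and -1.03. Without recipient 1 only ND4L passed, with ND5 at -0.73 (adjusted p = 0.0721) and ND4 at -0.47 (0.0855). Without recipient 2 ND5 did not pass (-0.84, adjusted p = 0.0613), and without recipient 3 ND4 did not (-0.54, adjusted p = 0.0521). Over all genes tested, 464 passed without recipient 2.

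ND1 and ND2 of complex I did not pass in adults. ND2 measured 6340 to 9953 CPM in recipients and 9578 to 12275 CPM in controls, a log2 difference of -0.41 ± 0.15 (edgeR adjusted p = 0.0966), and the groups overlapped through recipients 2 and 3 and control 7. ND1, the first protein gene of the chromosome, differed by -0.20 with an interval of -0.48 to 0.08 (log2, 95% normal interval from the standard error, as for all intervals given here). ND6 measured 25.1, 79.9, 20.0 and 22.0 CPM in recipients and 37.5, 33.7 and 24.1 CPM in controls. Recipient 2 stood far above adult control 5, the next highest of all libraries, and the log2 difference of 0.21 ± 0.47 had the widest standard error of the 10.

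Outside complex I, 0 of 4 genes passed in adults. COX1 measured 50138, 64092, 56557 and 41003 CPM in recipients and 71000, 76556 and 60445 CPM in controls, a log2 difference of -0.39 ± 0.16 (edgeR adjusted p = 0.12). CYTB measured 18091 to 26353 CPM and 25863 to 29703 CPM, with a log2 difference of -0.32 ± 0.14 (adjusted p = 0.136). In both genes recipient 2 overlapped with control 7.

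COX3, a core subunit of complex IV that lies downstream of ATP6 on the same precursor, was level between the adult groups. It measured 14927, 20752, 18756 and 13700 CPM in recipients and 16939, 18886 and 14947 CPM in controls, a log2 difference of 0.01 with an interval of -0.31 to 0.33. ATP6, the membrane subunit of ATP synthase through which protons pass, differed by -0.20 (interval -0.51 to 0.11). Of the 3 protein genes that are not members, COX2 had -0.06, ATP8 -0.43 and ND3 0.17 on the log2 scale, and none passed.

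Nuclear genes for subunits of the same complexes lay on the other side of 0 in adults. All 75 tested nuclear subunit genes had positive values, 25 rose and 0 fell, with a median log2 fold change of 0.32. These calls too were lost without adult recipient 4, adult control 5 or adult control 6, when 0 of all genes passed. In complex I 13 of 36 rose, among them Ndufv3 (380.7 ± 12.8 against 275.7 ± 7.15 CPM, n = 4 and 3), Ndufa7 and Ndufa2. In complex II, which has no mitochondrially encoded subunit, 0 of 4 rose. In complex III 3 of 9 rose (Uqcr10, Uqcrq and Uqcrc1), in complex IV 1 of 12 (Cox6b1, log2 0.40) and in complex V 8 of 14, among them Atp5e (log2 0.51), Atp5g2 and Atp5j2.

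The summed CPM of the 10 genes was 2.40 to 3.23 times that of the nuclear subunits in adult recipients (mean 2.91 ± 0.386, SD, n = 4). In adult controls the ratio was 4.22 to 4.87 (4.54 ± 0.325, SD, n = 3), with no overlap. In neonatal hearts it was 2.98 to 4.03 with T cells and 3.12 to 3.98 without. No p is given for these sums.

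**Figure D2:**
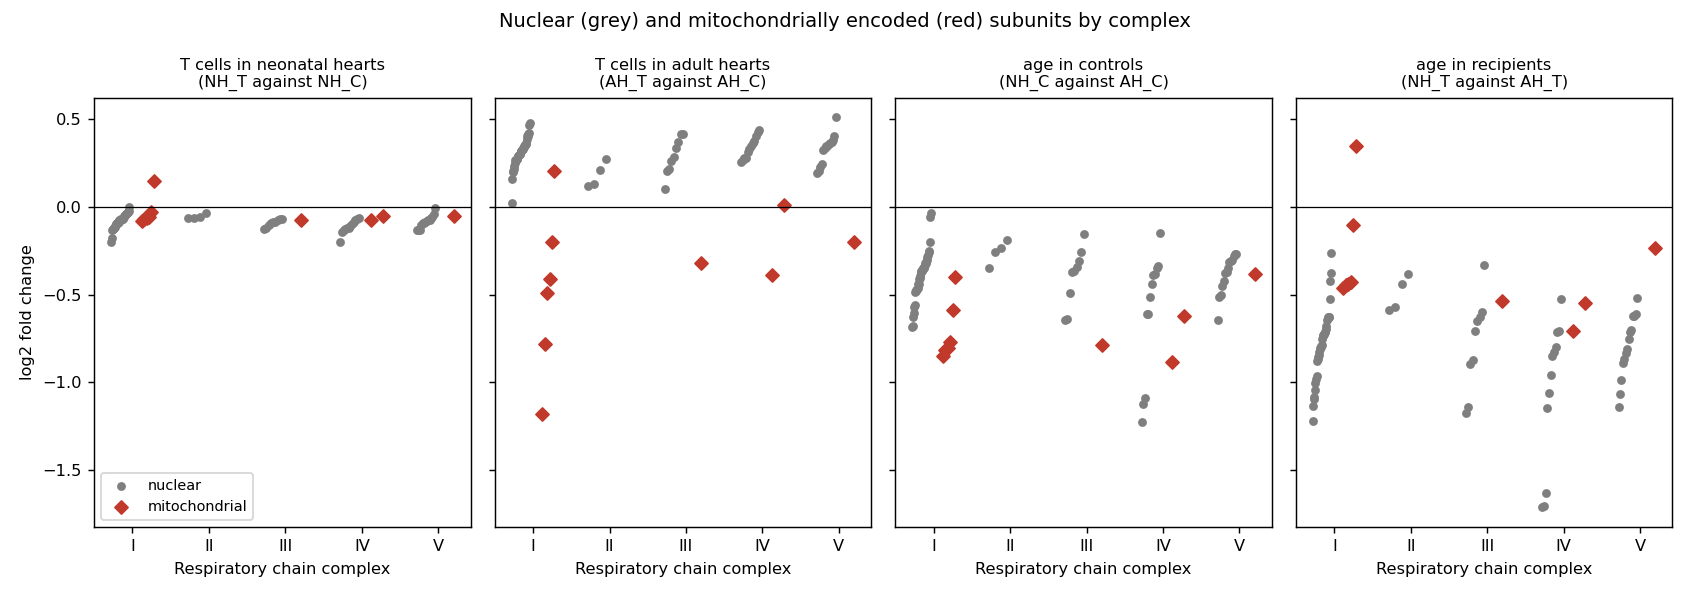
Log2 fold changes (vertical axis) of nuclear subunits (grey points) and of the 10 mitochondrially encoded genes (red diamonds) by respiratory chain complex, in 4 comparisons. For T cells in adults all 75 grey points are above 0 and 8 of 10 red diamonds below it, while in both age comparisons all grey points are below 0.

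Genes that make or process mitochondrial RNA showed no common shift in adults. Of 20 genes for transcription and upkeep of mitochondrial DNA, 0 passed, and their median was 0.0084 on the log2 scale. Of 23 genes for processing, stability and decay of mitochondrial RNA, 2 rose and 1 fell. Hsd17b10, a subunit of the enzyme that cuts the 5′ ends of mitochondrial transfer RNAs, rose by 0.39 ± 0.090 (131 ± 8.56 against 99.7 ± 1.87 CPM). Slirp, which binds and stabilises mitochondrial messengers together with Lrpprc, rose by 0.41 ± 0.11, and Angel2 fell by 0.27 on the log2 scale.

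Other features moved with the adult groups. Ventricular cardiomyocyte markers summed to 73113 to 81971 CPM in recipients and 61243 to 63655 CPM in controls, and 3 of 10 rose. Erythroid markers summed to 4940 to 6998 and 3836 to 4086 CPM, and 0 of 6 passed. T cell markers summed to 2.86 to 5.15 and 1.58 to 2.79 CPM, and 1 of 4 tested rose. None of the markers was at 0 in all libraries. Across 15359 genes with a known transcript length, Spearman's rho between the adult log2 fold change and transcript length was -0.446, as a description across genes, which are not independent replicates. With a trend on length removed in each library, 0 of 10 genes passed, with 0 of all genes passing, although the values were larger: -1.31 for ND4L (edgeR adjusted p = 0.0646), -0.88 for ND5 and -0.63 for ND4. The part of cell makeup in the fall of these genes was not tested.

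The second comparison asked the same of the neonatal heart, where T cells left the 10 genes within their spread. By edgeR 0 of 10 passed, and 0% of all genes did. At an unadjusted p below 0.05 there were 513 of 16437 genes and none of the 10, and DESeq2 and limma voom also called 0. The median log2 difference was -0.06, with a range of -0.08 to 0.15. The groups overlapped in all 10 genes, and among all genes tested recipients lay wholly above controls in 0.627% and wholly below them in 0.736%. Without neonatal control 6, 9 of all genes passed and 0 of the 10.

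ND4L measured 635, 775, 494 and 541 CPM in neonatal recipients 1, 2, 4 and 5, and 554, 455, 778 and 769 CPM in neonatal controls 6 to 9. ND5 measured 9411, 11053, 6626 and 8555 CPM in recipients and 8550, 6863, 11431 and 10766 CPM in controls. In both genes the groups covered much the same range. The log2 differences were -0.06 for ND4L (interval -0.48 to 0.35) and -0.08 for ND5 (interval -0.47 to 0.31), and that of COX1 was -0.05 (interval -0.34 to 0.24). Recipient 4 was lowest of the neonatal recipients in 9 of 10 genes, and control 8 highest of the neonatal controls in 9 of 10. Macrophage markers summed to 581 to 881 CPM in neonatal recipients and 218 to 676 CPM in controls, and 0 of 8 passed. The nuclear subunits had 75 of 75 negative values with a median of -0.08, and 0 passed.

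Whether the T cell effect differed between ages was tested as the difference of both effects. The time after infarction is not given for adults, so age and that time cannot be told apart in this difference. By edgeR 0 of 10 genes passed, as did 0% of all genes, with 2511 genes at an unadjusted p below 0.05. ND4L differed most, by 1.12 ± 0.31 on the log2 scale (neonatal minus adult effect, edgeR adjusted p = 0.182), followed by ND5 at 0.70 ± 0.29 (0.273) and ND4 at 0.42 ± 0.20 (0.324). DESeq2 called 174 genes, among them ND4L at 1.10 (adjusted p = 0.0496), and limma voom called 0. Spearman's rho between this difference and transcript length was 0.405 across the same 15359 genes, as a description. With the length trend removed ND4L was at 1.25 (edgeR adjusted p = 0.351), and 0 of 10 passed.

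**Figure D3:**
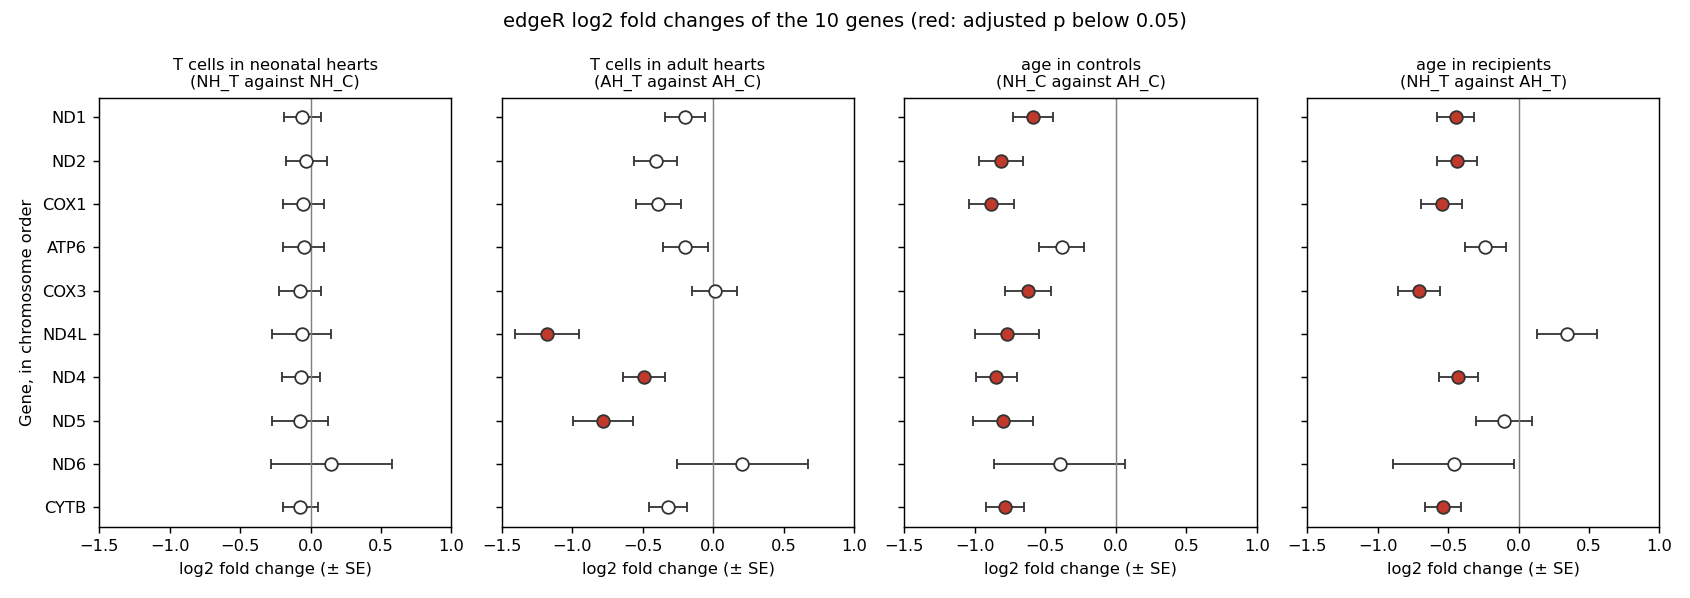
Log2 fold change (horizontal axes, bars are standard errors) of each gene, ordered along the chromosome, in the 4 comparisons between groups. Red points passed the edgeR threshold: 0 for T cells in neonates, 3 for T cells in adults, 8 for age in controls and 6 for age in recipients.

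The third comparison set neonatal against adult controls. The time after infarction is given for neonatal hearts only and may differ in adults. Age and that time therefore cannot be told apart here or between recipients. The 2 age comparisons share their libraries with the T cell comparisons, so their values are given side by side without any count of overlap. Of the 10 genes 8 were lower in neonatal controls and 0 higher, where 15.6% of all tested genes were lower and 15.4% higher (30.9% in either direction). The median log2 fold change was -0.78, against 0.018 over all genes. In the 8 genes every neonatal control lay below every adult control, which held for 17.7% of all genes, with 16.9% the other way.

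In complex I, ND4 (-0.85 ± 0.15), ND2 (-0.82), ND5 (-0.80), ND4L (-0.77) and ND1 (-0.59) were lower. ND4 measured 9634, 8798, 12886 and 10799 CPM in neonatal controls 6 to 9, against 16935 to 20353 CPM in adult controls. Neonatal control 8 was the highest of its group, and its value still lay below the lowest adult one. The call of ND4L was lost without neonatal control 6 (adjusted p = 0.0545), adult control 5 (0.063) or adult control 6 (0.0856), and that of ND5 without adult control 6 (0.0555).

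CYTB was lower by -0.79 ± 0.14, at 14416 to 20059 CPM against 25863 to 29703. COX1 had the lowest value, -0.88 ± 0.16 (edgeR adjusted p = 0.000446), and measured 32964, 31587, 48963 and 36884 CPM in neonatal controls. COX3 was at -0.62 ± 0.16. ATP6 did not pass (-0.38, edgeR adjusted p = 0.0737): it measured 8258, 7661, 11276 and 9350 CPM in neonatal controls and 11762, 13531 and 10484 CPM in adult ones, with control 8 inside the adult range. Without neonatal control 8 it passed (-0.50, adjusted p = 0.0186). ND6, at 19.6 to 27.6 CPM in neonatal controls, did not pass (-0.40 ± 0.46).

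All 75 nuclear subunits were also negative here, 65 passed, and their median was -0.36. The lowest were Cox7a1 (-1.23 ± 0.16), Cox8b and Cox6a2, the subunit isoforms of heart and skeletal muscle. Polrmt, the mitochondrial RNA polymerase, was lower by -0.46 ± 0.10 (31.3 ± 1.36 against 43.0 ± 5.67 CPM), and 4 of the 20 genes for transcription and upkeep were lower. Cardiomyocyte markers summed to 47278 to 54204 CPM in neonatal and 61243 to 63655 CPM in adult controls, with 5 of 10 lower. Endothelial markers summed to 792 to 853 and 1100 to 1109 CPM, with 4 of 5 lower, and 4 of 8 macrophage markers were higher. Of 6 erythroid markers 1 was lower and 1 higher, and their sums were 1092 to 3075 and 3836 to 4086 CPM. Their part in the lower mitochondrial levels was not tested.

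The last comparison set neonatal against adult recipients. Of the 10 genes 6 were lower in the neonatal hearts and 0 higher, where 23.8% of all tested genes were lower and 26.9% higher (50.7% in either direction). These were COX3 (-0.71 ± 0.15), COX1 (-0.55), CYTB (-0.54), ND1 (-0.45), ND2 (-0.44) and ND4 (-0.43), and in COX3, COX1 and CYTB the neonatal libraries lay wholly below the adult ones, as in 21.6% of all genes (23.8% lay wholly above). The median was -0.44 over the 10 genes and 0.031 over all genes. ND2 and ND4 did not pass without neonatal recipient 4 (-0.35 for either, adjusted p = 0.0621 and 0.056) or adult recipient 2 (-0.34 and -0.33), and ND2 not without adult recipient 3 (-0.36). Spearman's rho between the log2 fold change and transcript length was 0.261 across 15359 genes here, against 0.0524 for age in controls, as a description. With the length trend removed 3 of the 10 were lower, and ND1 (-0.35, adjusted p = 0.0604), ND2 (-0.34, 0.0852) and ND4 (-0.36, 0.0588) did not pass.

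ND4L and ND5, which were lower in neonatal than in adult controls, stood otherwise in recipients. ND4L measured 494 to 775 CPM in neonatal and 351 to 572 CPM in adult recipients, a log2 difference of 0.35 ± 0.21 (edgeR adjusted p = 0.191). ND5 measured 6626 to 11053 and 7157 to 11772 CPM, a difference of -0.10 (interval -0.49 to 0.29). The nuclear subunits were lower in 75 of 75 genes, with a median of -0.79. Cardiomyocyte markers summed to 43741 to 53846 CPM in neonatal recipients against the 73113 to 81971 CPM of adult ones, with 9 of 10 lower, and 8 of 8 macrophage markers were higher. Erythroid markers summed to 1594 to 2748 CPM in neonatal and 4940 to 6998 CPM in adult recipients, with 5 of 6 lower, and endothelial markers to 754 to 873 and 1090 to 1251 CPM, with 4 of 5 lower. Neutrophil markers summed to 31.9 to 57.9 and 10.4 to 22.6 CPM, with 5 of 6 higher, and 2 of 4 tested T cell markers were lower. Of 6 fibroblast markers 2 were higher and 1 lower. Their part in the mitochondrial levels was not tested.

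Scaling bears on the age values. With library totals in place of TMM the median of all genes moved by 0.166 (controls) and 0.195 (recipients) on the log2 scale, and among recipients 4 genes then passed, with ND4L higher (0.55, adjusted p = 0.0303) and COX1, COX3 and CYTB lower. Counted instead against the sum of mitochondrial protein-coding counts, which by construction centres these genes near 0, none was lower: ATP6 was higher in neonatal controls (0.37, adjusted p = 0.0172), and ND4L (0.83) and ND5 (0.38) were higher in neonatal recipients.

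The makeup of the mitochondrial messengers, which does not depend on scaling to the rest of the library, differed between the adult groups. ND4L counts per 100 ND4 counts were 3.41 to 3.68 in the 4 adult recipients (3.56 ± 0.114, SD), 4.81 to 6.42 in adult controls, 5.12 to 7.15 in neonatal recipients and 5.17 to 7.12 in neonatal controls. The adult recipients thus lay below the other 11 libraries. Both genes lie on 1 messenger, with ND4L farther from its poly(A) tail. Of all mitochondrial protein-coding counts, ND5 made up 5.42 to 6.38% in adult recipients and 6.96 to 8.66% in adult controls, and in neonatal hearts 6.57 to 8.67% with T cells and 6.47 to 8.63% without. COX3 made up 9.61 to 10.4% in adult recipients, 7.92 to 8.19% in adult controls, 8.03 to 9.14% in neonatal recipients and 7.99 to 9.32% in neonatal controls. For ND5 the adult recipients lay below all other libraries, and for COX3 above them. ND1 made up 10.2 to 10.6% in adult recipients, 10.3 to 10.9% in either neonatal group and 9.33 to 9.75% in adult controls, so here the adult controls lay below all other libraries. ATP8 counts per 100 ATP6 counts, a ratio chosen after its values were seen, were 8.90 to 9.73 in adult recipients and 10.3 to 10.9 in adult controls. These ratios and shares are descriptions, and none was tested.

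**Figure D4:**
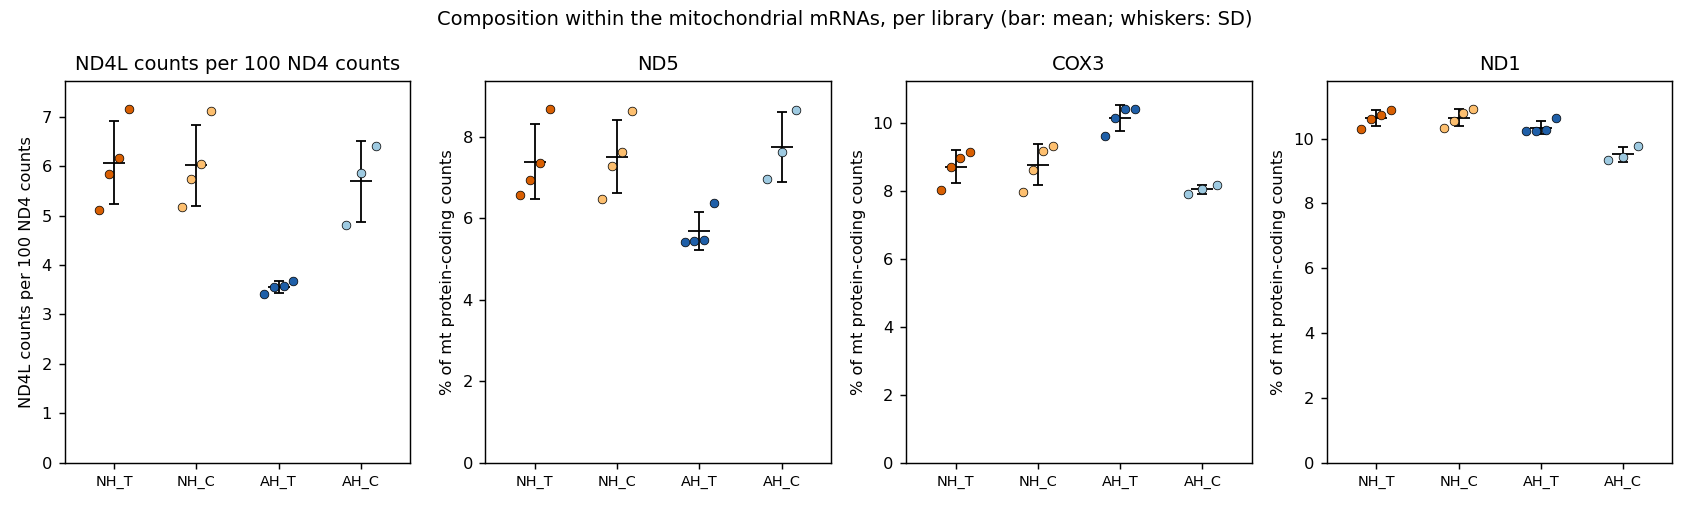
Makeup of the mitochondrial messengers per library (points) with group mean and SD: ND4L counts per 100 ND4 counts, and ND5, COX3 and ND1 as a percentage of mitochondrial protein-coding counts, all axes from 0. The 4 adult recipients (AH_T) lie at 3.41 to 3.68 for ND4L and below all other libraries.

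The genes whose levels across the 15 libraries were most like the mean of the 10 were sought among 3672 nuclear genes with a mean of at least 50 CPM. Likeness was the root mean square difference of log2 profiles centred on each gene's mean, whose median over these genes was 0.375. Chpt1, a choline phosphotransferase, was closest at 0.132, followed by Jcad (0.136), Rasgrp3 (0.143), Ppp2r3a (0.143) and Vldlr, the very low density lipoprotein receptor (0.143). Among the 10 themselves ND2 (0.082), ND4 (0.091) and ND1 (0.092) were closest to their common mean, and ND4L (0.339) and ND6 (0.433) farthest from it. Each of the 10 is part of that mean, which lowers its value, so these values cannot be set against those of the nuclear genes.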

How the data were processed

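The authors deposited 1 table of raw expected counts per gene for 15 libraries, per the file headers and values (61.1% of non-zero values are whole numbers, so reads were split into fractions). Per the submitters' processing notes, bcl2fastq 2.20.0.422, cutadapt 2.5, STAR 2.7.2b, featureCounts 1.6.4 and DESeq2 1.24.0 were used with GRCm38.p6. Per the labels' protocols, libraries were stranded and captured with oligo-dT. Strand setting and the rule for fractions are not given in the sources used here.

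Expected counts were rounded to whole numbers, since the planned count test needs them. Genes were kept by filterByExpr (minimum count 10, minimum total 15), scaled by TMM and tested with the robust quasi-likelihood test of edgeR 4.0.16 (R 4.3.3) in 1 fit with 1 coefficient per group, two-sided, with Benjamini-Hochberg adjustment. The standard error was the size of the log2 fold change over the square root of F, and intervals are 95% normal ones. CPM used a prior count of 1 on the log scale. Depth was 21871617 to 34302786 counts per library. Alternatives were other scalings, no filter, DESeq2 1.42.0, limma 3.58.1, fits of the compared groups only, a replicate block, removal of a length trend by a natural spline of 5 degrees of freedom (transcript lengths from GENCODE M21), and leaving out each library. Only the edgeR fit was tried on simulated counts, with 200 genes changed per comparison. These counts held no trend on transcript length, so the trial does not bear on that trend.

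The genes and the lists were chosen with earlier results of these data known. Named genes were the 10 genes, other mitochondrial rows, up to 3 genes per nuclear list with the smallest p, and the 5 nuclear genes most like the mean profile. Cell type markers were summed per library. Shares, ratios and sums were not tested.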

Additional observations from a re-analysis of the deposited data

Results flagged for a closer look

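In 7 of 72 groups of 4 libraries examined, 1 library stood far from the other 3. Chance gives about 1 in 20 such groups, and the quantities are not independent of each other. COX3 in neonatal control 8 measured 14616 CPM against 9666 to 9961 in the other neonatal controls. ND6 in adult recipient 2 measured 79.9 CPM against 20.0 to 25.1 in the other adult recipients. In adult recipient 3, ND1 made up 10.6% and ND5 6.38% of mitochondrial protein-coding counts, both above the other recipients. ND6 counts per 100 ND5 counts were 0.187 in neonatal recipient 5, the lowest of its group, and 0.402 in neonatal control 7, the highest of its group. ATP8 counts per 100 ATP6 counts were 9.73 in adult recipient 1, the highest of the adult recipients.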

How the results depend on the processing

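For T cells in neonates 0 of the 10 genes passed under every alternative run. For T cells in adults 3 fell, with 2 to 4 under other scalings, no filter, DESeq2, limma voom or a fit of the adult groups only. It was 0 with the length trend removed, also with shared messengers at their joint length (an alternative chosen after seeing the data), and 1 with library sizes from mitochondrial protein-coding counts (also chosen after seeing the data). It was 0 to 3 when 1 library was left out. For the difference of the effects 0 passed, and 1 with DESeq2. For age in controls 8 were lower, and 6 to 9 when 1 library was left out. Over the alternatives that left out no library, 7 of 110 values lost their call, 2 gained a call and 3 changed sign with a call. Those with the mitochondrial library sizes given below are among them. For age in recipients 6 were lower, and 4 to 6 when 1 library was left out, and 3 with the length trend removed. With mitochondrial library sizes 1 was called in controls and 2 in recipients, all higher. Among genes called under that or the main scaling, values turned positive for ND1 (0.16), COX3 (0.12) and ATP6 (0.37) in controls. In recipients they did so for ND1 (0.039), ND2 (0.0505), ND4 (0.0593) and ND5 (0.38), since that scaling centres these genes near 0. Sign changes of genes called under neither scaling are not listed. For other alternatives the cause was not tested. Over all genes, T cells in adults gave 1406 calls, 2324 with DESeq2, 0 with the length trend removed and 0 to 1230 when 1 library was left out. T cells in neonates gave 9 calls without neonatal control 6, and 0 otherwise.

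Scaling by library totals moved the split of higher and lower calls from 2526 and 2559 to 5152 and 1413 for age in controls, from 4420 and 3919 to 6853 and 2279 in recipients, and from 580 and 826 to 458 and 1034 for T cells in adults. For the latter, size factors by relative log expression gave 726 and 732, and DESeq2 1237 and 1087.

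The numbers in the titles recur between ages. Deviations from group means of same-numbered libraries correlated at 0.0721, 0.111 and -0.0709 in recipients and -0.0614 and 0.31 in controls, so the numbers were not taken as a pairing, and not every recipient correlated best with its own number. With the replicate block 9 of 10 genes were called in controls, ATP6 added (-0.58, adjusted p = 0.00392), and 7 in recipients, with ND4L higher (0.44, adjusted p = 0.00486). In that fit only the same-numbered libraries correlated above bear on the age difference. The other libraries drop out of it, and little is left to estimate the spread, so these calls carry little weight. Over all genes the block gave 3724 calls in controls against 5085 and 7239 in recipients against 8339. The depth limits ND6 most, whose counts were the lowest of the 10 genes.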

Other observations

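Of 12 tested rows for mitochondrial transfer RNAs, which lie between the protein genes, 9 were lower in neonatal than in adult controls and 0 higher, where 15.6% of all tested genes were lower. In recipients 8 of 12 were lower and 0 higher, where 23.8% of all genes were lower. TrnT and TrnP passed in neither comparison, TrnS1 not in controls, and TrnL1 and TrnK not in recipients, where TrnT, TrnP and TrnL1 had positive values (0.54, 0.58 and 0.02 on the log2 scale). TrnD, the gene for the aspartate transfer RNA upstream of COX2, measured 33.3 to 49.9 CPM in neonatal controls and 176 to 223 CPM in adult controls, a log2 fold change of -2.32 ± 0.35 (edgeR adjusted p = 0.000447). In recipients it measured 25.7 to 80.8 and 188 to 305 CPM, at -2.31 ± 0.33. TrnI stood at -2.40 in controls and -2.37 in recipients, TrnW at -2.09 and -1.84, TrnG at -2.19 and -2.21, and TrnM at -1.51 and -2.38. The groups of these 5 rows did not overlap in either comparison. The libraries were captured by poly(A), and what RNA these reads came from was not tested. These 5 rows were chosen after their values were seen.

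The ribosomal RNAs were lower as well in neonatal controls, mt-Rnr1 by -1.12 ± 0.18 and mt-Rnr2 by -1.18 ± 0.22 (log2). With T cells in adults, TrnL1, which follows mt-Rnr2, fell by 0.73 on the log2 scale (edgeR adjusted p = 0.0309), from 64.8 to 80.8 CPM in controls to 33.2 to 56.2 CPM in recipients. As for all genes, that call was lost without adult recipient 4, adult control 5 or adult control 6.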
